A study of Mus musculus with 14 samples.

Results

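The loss of Rheb in microglia of mice given only PBS was examined here, as the difference between 3 knockout (KO) and 3 control (WT) libraries, which are 6 of the 14 RNA-seq libraries of the series. They were chosen by genotype and treatment alone, from the table of TPM (a transcript level scaled to gene length and to a total of 1000000 in each library). WT animals were Rheb F/F, carrying floxed Rheb alleles without Cre, and KO animals were Rheb F/F; Tmem119-cre ER, in which a tamoxifen-inducible Cre is driven by the microglial gene Tmem119. All 4 groups of the series consisted of mice of 8 weeks that had received tamoxifen and then 4 days of daily intraperitoneal injections, of PBS here and of LPS at 1.0 mg/kg in the other 8 libraries, and the cells were purified from brain by magnetic sorting. Every KO library and no WT library comes from animals with Cre, so the effects of Cre and of the Rheb deletion cannot be told apart. Whether each library stands for an animal of its own is not stated in the labels, and the p-values therefore reflect library-to-library spread that may be technical.

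Rheb is a small GTPase of the lysosomal surface that, when bound to GTP, switches on the kinase complex mTORC1, and the TSC complex switches Rheb off. Active mTORC1 promotes the making of ribosomes and the translation of ribosomal protein mRNAs, and holds back autophagy and the transcription of lysosomal genes. Microglia are the resident macrophages of the brain, known by genes such as Tmem119, P2ry12, Cx3cr1 and Sall1, and they keep up a large lysosomal system for the debris they take in.

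The PBS libraries had between 15.7 and 20.7 M reads, as recovered from the TPM steps. Microglial genes were high in all 6, with P2ry12 at 3484 to 4401 TPM, Cx3cr1 at 3441 to 4428 TPM and Sall1 at 431 to 585 TPM. The library WT914 also held transcripts of the anterior pituitary: Gh, growth hormone, stood at 78126 TPM there and at 1.90 TPM or less in the other 5 PBS libraries, and 1 of the KO libraries under LPS, the third, held it at 19672 TPM. In a principal component analysis WT914 lay at one end of the component with the largest share of the variance, 31.7%. The series text describes female mice, whereas the 6 PBS libraries held the Y-linked Ddx3y at 111 to 146 TPM and Xist at no more than 0.147 TPM, and the 8 LPS libraries held Ddx3y at no more than 0.27 TPM and Xist at 255 to 574 TPM. Sex is therefore the same within the PBS comparison, and sex and treatment cannot be told apart where PBS is set beside LPS.

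Rheb itself was lower in every KO library. The libraries WT904, WT913 and WT914 held 29.7, 32.2 and 34.5 TPM, and the libraries KO911, KO912 and KO915 held 16.6, 19.0 and 19.1 TPM, an order kept for all values given per library. The groups did not overlap, and the KO mean of 18.2 ± 1.43 TPM was 56.7% of the WT mean of 32.1 ± 2.39 TPM (SD, n = 3 each). The log2 fold change of TPM + 1 was -0.79 ± 0.12 (SE), with an adjusted p of 0.0163 from limma over all 18724 genes tested. An exact two-sided permutation test over the 3 and 3 libraries gave p = 0.1, the smallest that this design allows. Gene-level TPM pools all exons, so reads from outside the floxed part and from cells without recombination enter the KO value alike. The call was lost without WT913, WT914, KO911 or KO912, with adjusted p up to 0.0946, while the log2 fold change stayed between -0.84 and -0.72.

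The other genes of the Rheb and mTORC1 machinery did not pass the test. Rhebl1, a close relative of Rheb, lay at 2.8 to 5.7 TPM with overlapping groups. Mtor, the kinase, lay at 27.4 to 31.8 TPM and Rptor, the subunit that defines mTORC1, at 47.0 to 66.2 TPM, both with overlapping groups. Of 18 tested genes that feed into mTORC1 through Rheb and TSC, 1 was lower, Rheb itself, and 0 were higher, with a median log2 fold change of -0.03. None of the 11 mTORC1 and mTORC2 subunits (median 0.19, and 0.078 without WT904), the 26 genes of Rag GTPases and amino acid sensing (median -0.01) or the 22 mTORC1 effectors (median 0.05) was called in either direction. The median of all genes tested was -0.00. In the sensing list the smallest p belonged to Castor2, of the Castor family in arginine sensing. It stood at 20.9, 20.2 and 23 TPM in WT and at 9.87, 10.9 and 11.5 TPM in KO (adjusted p 0.0659).

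Across all genes, 191 of 18724 (1.02%) differed at an adjusted p under 0.05, of which 149 (0.796%) were higher and 42 (0.224%) lower in KO. The 3 KO and 3 WT libraries did not overlap for any of the 191, against 25.8% of all genes tested. Most changes were small, with 145 of the 191 under 2-fold. Rises outnumbered falls less under other scalings: the higher share was 78.0% of the calls in TPM, 67.4% with median-of-ratios scaling and 66.4% after removal of the pituitary genes. For 92 of the 149 rises WT914 was the lowest of the WT libraries. Without WT914, 40 genes (0.214%) passed, 25 higher (0.134%) and 15 lower (0.0801%), 36 of them among the 191. The higher share was then 62.5%, and it was 52.6% of 19 calls without WT914 and that LPS library and 36.4% of 11 calls in PBS libraries alone without WT914. The number called fell to 8 without KO911 and to 10 without KO912, and was 50, 45 and 39 without WT904, WT913 and KO915. With PBS libraries alone it was 109, and 57 of these were among the 191. The sign of the difference was the same for all 191 under every alternative run in which the gene was tested. As the groups did not overlap for these genes, leaving out a library could not reverse a sign. Neither could a change of pseudocount, filter or variance model. Only the other scalings and limma-voom on recovered reads could have done so.

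**Figure D1:**
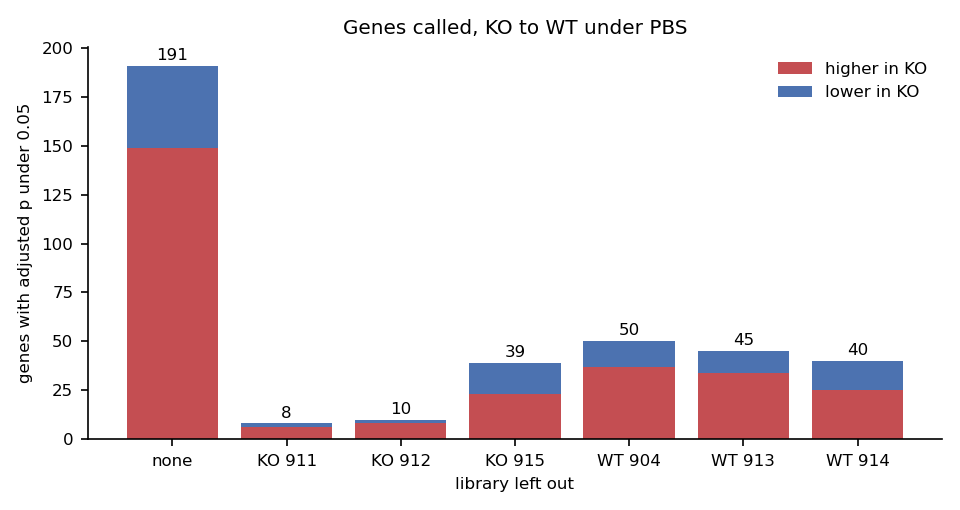
Bars give the number of genes with an adjusted p under 0.05 (limma) between KO and WT under PBS, split by direction, with no library or the named library left out. All libraries gave 191 genes, and leaving out 1 library gave between 8 (KO911) and 50 (WT904).

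Only 7 genes passed with each of the 6 libraries left out in turn, and they covered both directions. Nrros, a protein of the myeloid endoplasmic reticulum and cell surface that anchors latent TGF-beta, rose from 149, 131 and 118 TPM in WT to 239.6, 248 and 234 TPM in KO, which is 1.81-fold (log2 fold change 0.86 ± 0.08, adjusted p 0.00129). Spint1, an inhibitor of serine proteases, rose from 91.3, 93.9 and 87.1 TPM to 157.5, 161 and 186 TPM, 1.85-fold (0.88 ± 0.12, adjusted p 0.0086). Arhgap4, a GTPase-activating protein, rose from 86.2, 84.4 and 79.2 TPM to 120.9, 132 and 117 TPM, 1.48-fold (0.56 ± 0.07, adjusted p 0.00699). In each the lowest KO library lay well above the highest WT library. The other 4 were Hcar2, H2-Ob and the short RNAs Mir1938 and Gm23640. Gm23640 stood at 12.7, 9.13 and 9.13 TPM in WT and was listed at 0 in all 3 KO libraries, on 6, 4 and 5 recovered reads in WT.

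**Figure D2:**
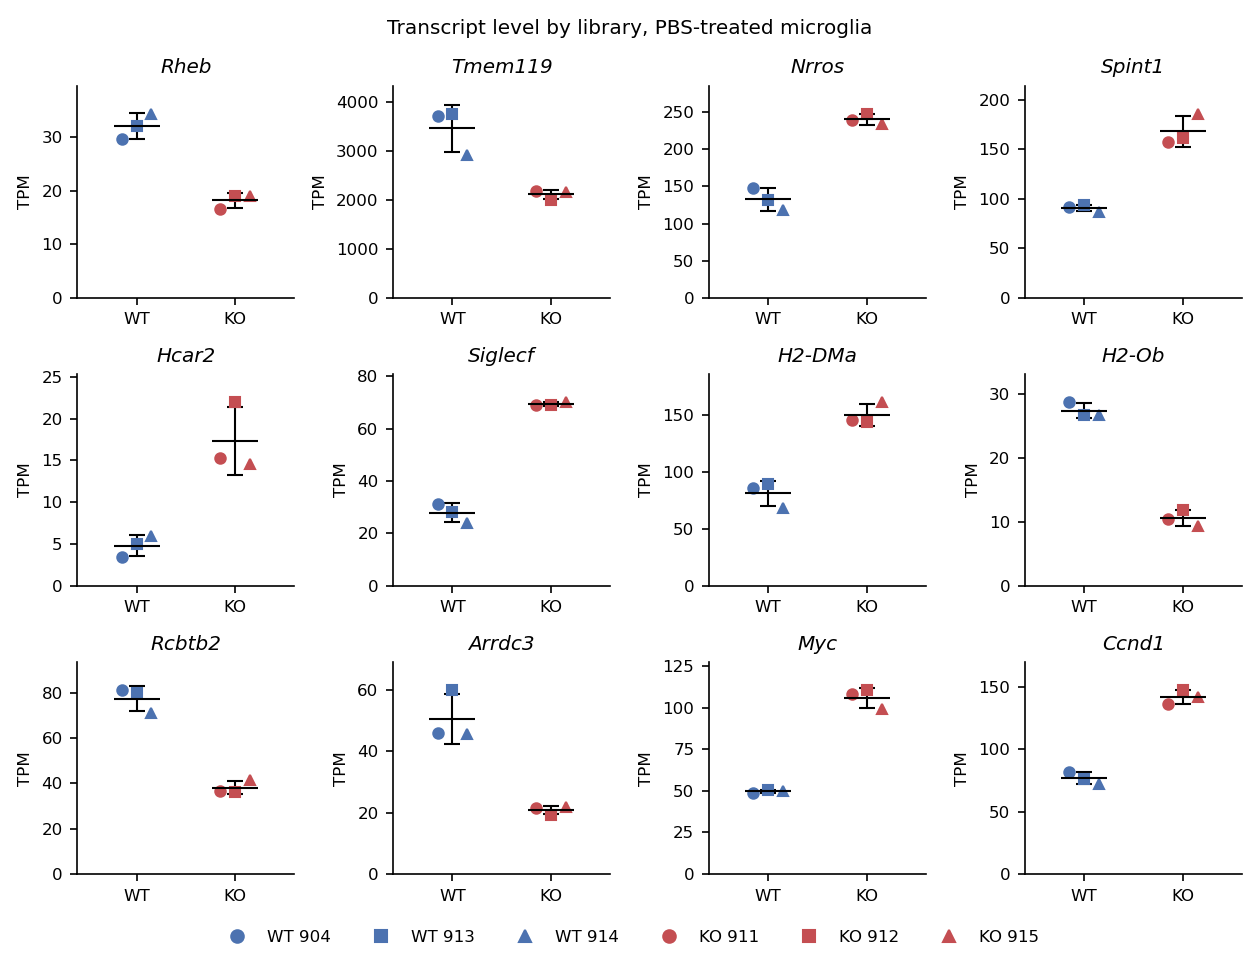
Each panel gives the TPM of 1 gene in the 3 WT and 3 KO libraries under PBS (points), with the mean and SD of each group as lines. In all 12 panels the KO points lie apart from the WT points, at 56.7% of the WT mean for Rheb, 61.0% for Tmem119 and 249% for Siglecf.

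Genes of the cytosolic ribosome, the machine that makes protein, were higher in KO as a group. All 49 tested genes of the large subunit had a positive log2 fold change (median 0.57), and 5 rose and 0 fell at the threshold. All 33 of the small subunit were positive too (median 0.63), with 5 called higher and 0 lower. The calls made up 10.2% of the large and 15.2% of the small subunit list, against 1.02% of all genes tested. All lists were chosen with earlier results of these data known, so such shares, here and below, are descriptive only. KO lay above WT without overlap for 44 of the 49 and 30 of the 33, against 14.9% of all genes tested. Rpl12, of the large subunit, had 228, 246 and 233 TPM in WT and 434, 420.3 and 525 TPM in KO, 1.95-fold (log2 fold change 0.96 ± 0.16, adjusted p 0.0196). Rps28, of the small subunit, had 192, 201 and 187 TPM in WT and 326, 349 and 396 TPM in KO, 1.85-fold (0.88 ± 0.18, adjusted p 0.0451). Here KO915 was the highest library of all 6. Others called were Rpl10a, Rplp2, Rpl5, Rps19, Rps20, Rps18 and Rps13, between 1.52-fold and 1.78-fold. Ribosomal protein genes have many processed copies elsewhere in the genome, and how reads shared with these were counted is not given in the sources used here, so single values are uncertain.

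These 10 calls depended on the libraries, while the group's shift did not. With WT913 left out 1 of the 10 passed, and without any of WT904, WT914, KO911, KO912 and KO915 none did, with adjusted p up to 0.154. The list medians stayed between 0.51 and 0.63 for the large and between 0.56 and 0.69 for the small subunit over the same 6 fits. With median-of-ratios scaling 2 of the 10 calls held and the medians were 0.55 and 0.61. Of 77 mitochondrial ribosomal proteins, which serve the separate ribosome of the mitochondrion, 0 were called and the median was 0.05. Of 40 translation factors, 1 was called, higher (2.5%, against 1.02% of all genes tested), and the median was 0.20. It was Eef1e1, a protein of the aminoacyl-tRNA synthetase complex, at 8.17, 10.3 and 11.6 TPM in WT and 17.7, 16.9 and 16.4 TPM in KO (adjusted p 0.0474, and up to 0.166 with 1 library left out, lost in all 6 fits).

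**Figure D3:**
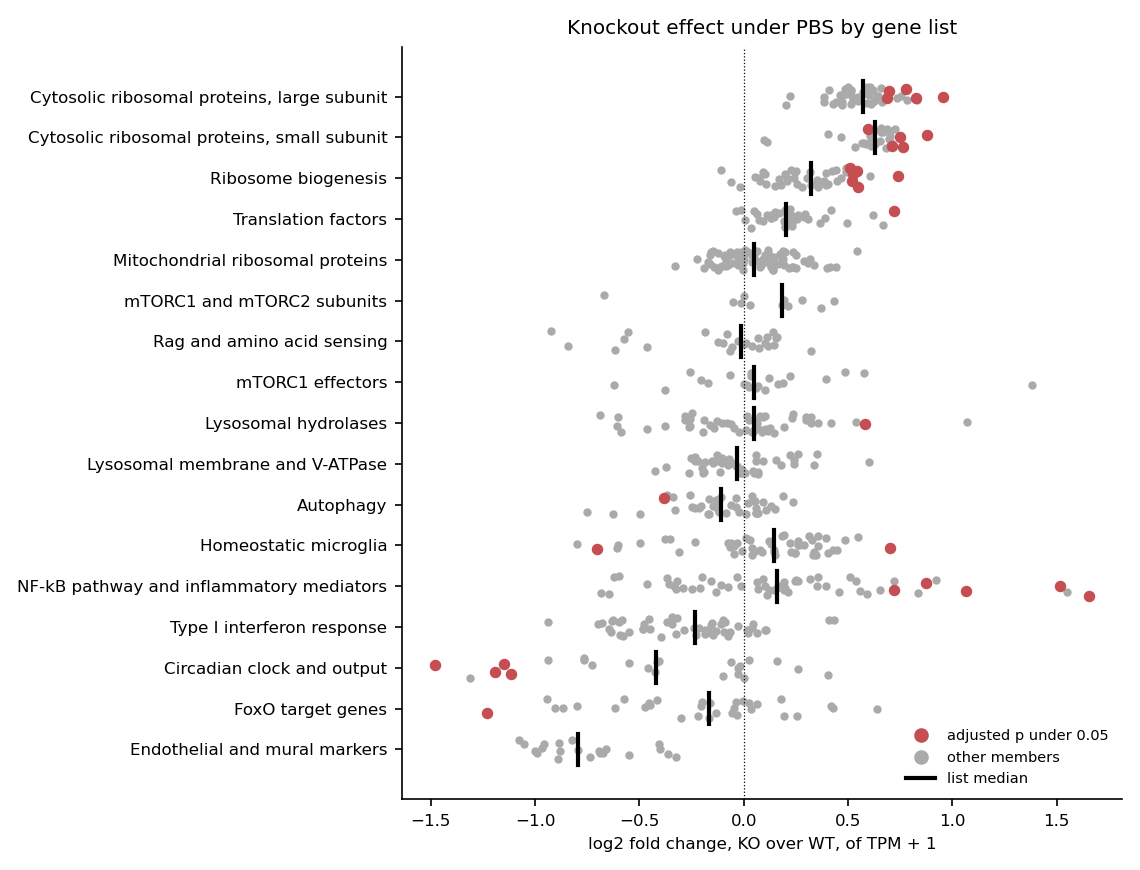
Each point is the log2 fold change of TPM + 1, KO over WT under PBS, of 1 tested member of the gene list named on the left, coloured where the adjusted p is under 0.05, and the bar is the list median. Both cytosolic ribosomal lists lie wholly above 0 (medians 0.57 and 0.63), and the clock list has a median of -0.42.

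Ribosome biogenesis factors, the nucleolar proteins that process ribosomal RNA and assemble the subunits, were also shifted upwards. Of 47 tested, 6 rose and 0 fell (12.8% called, against 1.02% of all genes tested), 44 were positive, and the median was 0.32. Noc2l had 76.2, 70.3 and 62.2 TPM in WT and 103, 98.3 and 99.0 TPM in KO, 1.44-fold (log2 fold change 0.53 ± 0.08, adjusted p 0.00973). Nop2, a methyltransferase of ribosomal RNA, had 76.0, 73.7 and 62.7 TPM in WT and 105, 105 and 101 TPM in KO, 1.46-fold (0.55 ± 0.10, adjusted p 0.0327). The other 4 were Gnl3, Mybbp1a, Utp14a and Wdr75, between 1.43-fold and 1.69-fold. None of the 6 passed without KO911 or without KO912, 2 passed without WT904, and 1 passed without each of WT913, WT914 and KO915, with adjusted p up to 0.159.

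Among 17 genes of the Myc network and cell growth, 3 rose and 1 fell, with a median of -0.13. That is 23.5% called, against 1.02% of all genes tested. Myc, a transcription factor that drives growth and ribosome genes, had 48.5, 50.7 and 49.9 TPM in WT and 108, 111 and 99.2 TPM in KO, 2.13-fold (log2 fold change 1.08 ± 0.18, adjusted p 0.0196). Ccnd1, cyclin D1, which opens the cell cycle, had 81.5, 76.4 and 72.2 TPM in WT and 136, 147 and 141 TPM in KO, 1.85-fold (0.88 ± 0.14, adjusted p 0.0177). Mnt, a repressor that competes with Myc for its partner Max, rose 1.34-fold (adjusted p 0.0451). Mxd4, another Max partner and repressor, fell from 74.7, 78.7 and 67.5 TPM to 45.7, 46.2 and 49.5 TPM, 64.0% of WT (adjusted p 0.0489). Myc also belongs to the list of immediate early and dissociation genes, where it was the only one of 32 called (3.12%). The median there was 0.27, and between 0.12 without KO911 and 0.49 without WT913. None of 36 cell cycle genes was called, with a median of -0.24 that became 0.04 without WT914. Without WT904, 2 of the 4 calls held, and without any other of the 6 libraries none did, with adjusted p up to 0.168.

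Inflammatory genes moved in part, with single genes up to 3.59-fold higher. Of 55 tested genes of the NF-kB pathway and inflammatory mediators, 5 rose and 0 fell (median 0.16). That is 9.09% called, against 1.02% of all genes tested. Hcar2, a receptor for nicotinic acid and beta-hydroxybutyrate, had 3.42, 5.05 and 6.0 TPM in WT and 15.3, 22 and 14.6 TPM in KO, 3.59-fold (log2 fold change 1.66 ± 0.19, adjusted p 0.0038). Gpr84, which senses medium-chain fatty acids, had 46.7, 40.9 and 39.5 TPM in WT and 120.3, 113 and 137 TPM in KO, 2.91-fold (1.52 ± 0.27, adjusted p 0.0272). These are also the 2 called of 34 metabolite and lipid receptors (5.88%), whose median was -0.17 and became -0.039 without KO911. Il1a, the cytokine interleukin-1 alpha, rose 2.11-fold, from 51.7-62.7 TPM in WT libraries to 110.1-125 TPM in KO libraries (adjusted p 0.0319). Cd83, an activation marker, rose 1.84-fold (adjusted p 0.0451), and Icam1, an adhesion molecule, rose 1.66-fold (adjusted p 0.0163). Hcar2 was the only one of the 5 that passed with every library left out. Of the 5, 2 passed without WT904 and 1 without each other library, with adjusted p up to 0.163. With PBS libraries alone Hcar2 did not pass (adjusted p 0.0616 in limma), and the other 4 did. With limma-voom on recovered reads Icam1 passed (adjusted p 0.025). Hcar2 (0.0504), Gpr84 (0.078), Il1a and Cd83 (0.062 each) did not.

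Classical cytokines did not follow as a set. Tnf had 11.5, 17.2 and 15.2 TPM in WT and 88.0, 38.9 and 25.1 TPM in KO, without overlap but with a wide spread in KO, and did not pass (log2 fold change 1.55 ± 0.58, adjusted p 0.225). Il1b had 20.4, 14.7 and 33.9 TPM in WT and 21.1, 27.5 and 24.2 TPM in KO, with overlapping groups (adjusted p 0.90). None of 26 chemokines and chemokine receptors (median -0.03) and none of 50 type I interferon response genes (median -0.23) was called. In the interferon list 41 of 50 members had a negative log2 fold change, and KO lay below WT without overlap for 18, against 10.9% of all genes tested.

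Genes of antigen presentation by MHC class II changed in both directions. Of 11 tested, 2 rose and 1 fell (27.3% called, against 1.02% of all genes tested, median 0.05). H2-Ob is a chain of the molecule that restrains peptide loading, and it fell from 28.7, 26.7 and 26.7 TPM in WT to 10.4, 11.8 and 9.38 TPM in KO, 38.6% of WT (log2 fold change -1.30 ± 0.13, adjusted p 0.00129). H2-DMa is a chain of the molecule that promotes peptide loading in the lysosomal compartment. It rose from 85.8, 89.6 and 68.7 TPM to 146, 144 and 162 TPM, 1.85-fold (0.89 ± 0.13, adjusted p 0.00973). H2-DMb2, another chain of that molecule, rose from 26.3, 23.7 and 16.5 TPM to 39.3, 45.1 and 51.3 TPM, 2.04-fold (1.01 ± 0.20, adjusted p 0.0407). The presenting molecules did not separate: H2-Aa ranged from 144 to 207 TPM in WT libraries and from 153 to 221 TPM in KO libraries, and Cd74, the invariant chain, from 611 to 872 TPM and from 637 to 907 TPM. In the class I list, Tap2, a peptide transporter, was the only one of 22 called (4.55%), 1.39-fold higher (adjusted p 0.0434, list median 0.10). H2-Ob passed with every library left out, H2-DMa was lost without KO911 or KO912, and H2-DMb2 and Tap2 were lost without any of the 6, with adjusted p up to 0.15.

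Sialic acid receptors of the Siglec family also split. Siglecf, a receptor of myeloid cells, rose from 31.3, 28.3 and 24.1 TPM to 69.1, 69.1 and 70.3 TPM, 2.49-fold (log2 fold change 1.30 ± 0.18, adjusted p 0.00973). Cd22, known from B cells and also found in microglia, fell from 4.32, 4.47 and 4.59 TPM to 0.935, 1.42 and 1.18 TPM, 26.4% of WT (-1.33 ± 0.20, adjusted p 0.0121). Both sets of 3 were tight within each genotype. These calls made up 25% of the 8 tested, against 1.02% of all genes tested. The other 6 were not called, and the list median was 0.07. Siglech, abundant in microglia, had 1006 to 1210.5 TPM in WT libraries and 840.2 to 884 TPM in KO libraries, and Cd33 had overlapping groups. Both calls were lost without KO911 or KO912, with adjusted p up to 0.083, and held without each of the other 4.

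Among microglial identity genes, Tmem119 fell and Olfml3 rose. These were the 2 called of 52 homeostatic genes (3.85%, against 1.02% of all genes tested), and the list median of 0.15 became 0.037 without WT914. Tmem119, a membrane protein of unclear role that marks microglia and whose locus drives the Cre, fell from 3726, 3766 and 2911 TPM to 2176, 2002 and 2164 TPM, 61.0% of WT (log2 fold change -0.70 ± 0.14, adjusted p 0.0389). Olfml3, a secreted protein typical of microglia, rose from 754, 739 and 574 TPM to 1177, 1014 and 1158 TPM, 1.62-fold (0.70 ± 0.14, adjusted p 0.0389). With limma on PBS libraries alone neither Tmem119 nor Olfml3 was called (adjusted p 0.105 and 0.0839). P2ry12 and Csf1r overlapped between the groups. Of 23 lineage factors, Tal1, a transcription factor of blood development, was the only one called and rose 1.58-fold (adjusted p 0.0364). It made up 4.35% of that list, whose median of 0.23 became 0.15 without WT914. None of 35 disease-associated microglia genes or 27 complement and Fc receptor genes was called. Their medians of 0.05 and 0.14 became -0.027 and 0.080 without WT914.

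Other rises were of single surface proteins. Trpm2, a calcium channel opened by oxidative stress, rose 2.19-fold, from 40.1-60.5 TPM in WT libraries to 99.5-118 TPM in KO libraries (adjusted p 0.0138). Epha2, an ephrin receptor, rose 2.14-fold, from 29.6 to 42.7 TPM to 73.2 to 85.0 TPM (adjusted p 0.0115). Csf3r, the receptor for granulocyte colony-stimulating factor, had 654, 671 and 625 TPM in WT and 1009, 984 and 959 TPM in KO, 1.51-fold (adjusted p 0.0209). It is on the neutrophil marker list and was the only one of 18 called there (5.56%, against 1.02% of all genes tested). It was also the only one with a positive log2 fold change. Of the 6 genes Tmem119, Olfml3, Tal1, Trpm2, Epha2 and Csf3r, 3 passed without WT904, 2 without WT913, 2 without WT914, 1 without KO915 and none without KO911 or KO912, with adjusted p up to 0.153.

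A pair of enzymes of N-glycan synthesis rose as well. Alg8, a glucosyltransferase that builds the glycan precursor, rose from 40.5, 36.4 and 33.5 TPM to 66.8, 61.7 and 65.0 TPM, 1.75-fold (log2 fold change 0.80 ± 0.11, adjusted p 0.0086). Mogs, the glucosidase that begins to trim it, rose from 61.5, 56.7 and 61.6 TPM to 98.6, 92.8 and 102 TPM, 1.63-fold (0.70 ± 0.10, adjusted p 0.00973). Both were lost without KO911 and Mogs without KO912, with adjusted p up to 0.0705. No list of glycan genes was tested, and none of 25 genes of the unfolded protein response was called (median 0.20).

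Several of the largest falls were single genes of different kinds. Arrdc3, an arrestin-like adaptor and FoxO target that restrains receptor signalling, fell from 45.9, 60.0 and 45.7 TPM to 21.4, 19.3 and 21.8 TPM, 41.2% of WT (log2 fold change -1.23 ± 0.18, adjusted p 0.00973). It was the only one called of 32 FoxO target genes (3.12%, against 1.02% of all genes tested), whose median was -0.17. Trp53inp1, a p53-induced stress protein that also takes part in autophagy, fell from 69.1, 101.5 and 66.5 TPM to 32.1, 31.1 and 37.6 TPM, 42.5% of WT (-1.19 ± 0.17, adjusted p 0.00973). Rcbtb2 fell from 81.3, 79.8 and 71.2 TPM to 36.6, 36.3 and 41.4 TPM, 49.2% of WT (-1.004 ± 0.13, adjusted p 0.0086). Ptgfrn, a tetraspanin partner, fell to 50.6% of WT (adjusted p 0.0196), and Prox1, a transcription factor of lymphatic endothelium and neurons, to 49.5% (adjusted p 0.0378). Angptl7, a secreted protein, fell to 25.9% from 10.9 to 25.4 TPM in WT (adjusted p 0.0247). Adgre5, an adhesion receptor of leukocytes, fell to 54.1% with the KO libraries spread from 20.0 to 44.6 TPM (adjusted p 0.0489). Of these 7, 6 passed without KO915, 5 without WT914, 3 without WT904, 3 without WT913 and none without KO911 or KO912, with adjusted p up to 0.154.

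Output genes of the circadian clock were lower in KO. The clock is a loop in which Arntl and Clock switch on Per, Cry and Nr1d genes, whose products switch the former off, and the output factors Dbp, Tef and Hlf pass the rhythm on to other genes. Of 24 clock and output genes tested, 4 fell and 0 rose (16.7% called, against 1.02% of all genes tested), with a median of -0.42. Tef had 78.2, 76.6 and 56.3 TPM in WT and 31.6, 35.3 and 28.3 TPM in KO, 45.1% of WT (log2 fold change -1.11 ± 0.19, adjusted p 0.0209). Dbp had 23.4, 23.7 and 17.6 TPM in WT and 6.92, 11.8 and 8.22 TPM in KO, 41.7% of WT (-1.19 ± 0.24, adjusted p 0.0434). Hlf had 23.6, 23.9 and 21.5 TPM in WT and 8.10, 10.3 and 5.14 TPM in KO, 34.2% of WT (-1.48 ± 0.30, adjusted p 0.0434). All 3 genes of this family of output factors thus moved the same way. Wee1, a cell cycle kinase under clock control, fell to 37.8% of WT (adjusted p 0.0474).

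Several genes of the feedback arm lay below WT without passing the test. Nr1d1 had 43.8, 47.6 and 41.4 TPM in WT and 9.46, 30.5 and 17.2 TPM in KO (adjusted p 0.12). Per2 had 13.3, 14 and 11.6 TPM in WT and 7.42, 8.08 and 6.20 TPM in KO (adjusted p 0.148). Per3, Nr1d2 and Bhlhe40 were likewise below WT in each KO library (adjusted p 0.179, 0.112 and 0.0511). Cry1, a repressor of the same arm, overlapped between the groups, at 12.8, 14.2 and 14.6 TPM in WT and 16.2, 11 and 14 TPM in KO (adjusted p 0.977). KO912 was the highest KO library for Nr1d1, Nr1d2, Per2 and Per3. The activating arm did not separate, with Arntl between 10.5 and 12.5 TPM in WT libraries and between 10.4 and 12.2 TPM in KO libraries, and Clock between 27.4 and 30.6 TPM and between 26.7 and 28.6 TPM. In all, KO lay below WT without overlap for 11 of the 24, against 10.9% of all genes tested. Of the 4 calls, Tef held without WT914 (adjusted p 0.0297), and none held without any of the other 5 libraries, with adjusted p up to 0.166. With limma on PBS libraries alone 0 of the 24 were called (adjusted p 0.0572 for Tef, 0.0814 for Dbp and 0.0644 for Hlf). The time of day at which the libraries were collected is not given in the sources used here.

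**Figure D4:**
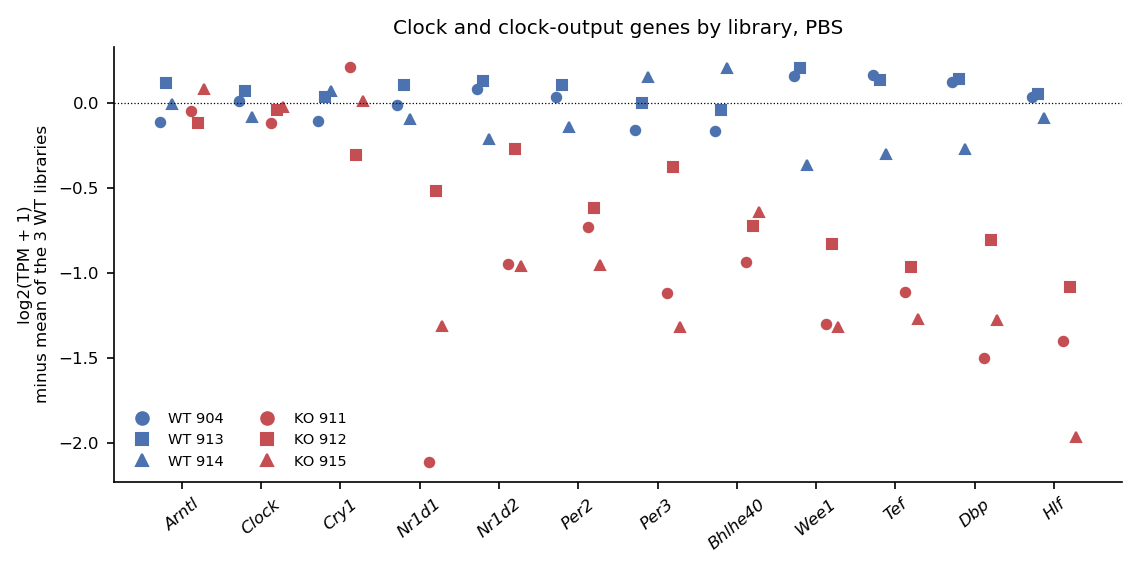
Points give log2(TPM + 1) of each PBS library minus the mean of the 3 WT libraries, for 12 genes of the clock and its output. Arntl, Clock and Cry1 lie around 0 in both genotypes, while Tef, Dbp, Hlf and Wee1 lie below all WT points in each KO library.

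Arntl and Clock bind the E-box CACGTG, and Dbp, Tef and Hlf bind the D-box TTATGTAA, so the promoters of Dbp, Tef and Hlf were searched for both words. The promoter of Wee1 was not analysed here. The windows were the 300 bases around each start site in RefSeq (GRCm38.p6), and each word was searched for on both strands. Each of the 2 Tef start sites had 1 E-box, 127 and 138 bases before the start, which is shown in capitals with 25 bases on each side. The E-box occurs in 7.15% of 32851 such windows.
Tef start site 1, chr15:81802521-81802576, + strand: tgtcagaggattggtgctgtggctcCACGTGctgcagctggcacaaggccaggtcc
Tef start site 2, chr15:81811251-81811306, + strand: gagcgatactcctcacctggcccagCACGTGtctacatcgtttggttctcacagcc
The windows of Dbp and Hlf held neither word, and those of Tef no D-box, a word found in 0.938% of windows. A match is a description of the letters only.

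Among genes tied to the lysosome, where Rheb acts, single genes passed the test. In a list of 54 lysosomal hydrolases and related genes, 1 rose (1.85%, against 1.02% of all genes tested) and 0 fell. Its median of 0.05 became -0.053 without WT914. The gene called was Nagpa, an enzyme of the mannose 6-phosphate tag that sends hydrolases to the lysosome. It rose from 101.4, 109 and 76.4 TPM to 134, 140.1 and 152 TPM, 1.49-fold (adjusted p 0.037). None of 44 lysosomal membrane proteins and V-ATPase subunits was called (median -0.03). The smallest p there belonged to Atp6v0a1, a subunit of the proton pump, between 114 and 119 TPM in WT libraries and between 167 and 188 TPM in KO libraries (adjusted p 0.0581). Of 43 autophagy genes, 1 fell (2.33%), Gabarapl2, a ubiquitin-like protein of the autophagosome membrane, from 113, 110.3 and 112 TPM to 76.3, 92.0 and 89.4 TPM (76.7% of WT, adjusted p 0.0474, list median -0.11). Outside the lists, Smpdl3a, a secreted phosphodiesterase, fell to 69.1% of WT (adjusted p 0.00973), and Mlxipl, a glucose-sensing transcription factor, rose 1.59-fold (adjusted p 0.0124). Of these 4 genes, 2 held without WT904, 3 without WT913, 2 without WT914, 2 without KO915 and none without KO911 or KO912, with adjusted p up to 0.179.

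Single genes of the mitochondrion were called. Of 74 nuclear genes of oxidative phosphorylation, 1 fell (1.35%, against 1.02% of all genes tested), with a list median of -0.03. It was Cox6a2, a subunit of cytochrome c oxidase known from muscle, at 12.2% of WT (adjusted p 0.0364). Its level was 3.88, 3.49 and 5.03 TPM in WT and 0.301, 0.679 and 0.528 TPM in KO. These values rest on 12, 10 and 18 recovered reads in WT and 1, 2 and 2 in KO. With limma-voom on recovered reads Cox6a2 was not called (adjusted p 0.122). Among 23 genes of mitochondrial calcium and carriers, Mcub, which damps the calcium uniporter, fell to 39.5% of WT (adjusted p 0.0444), and Mpc1, of the pyruvate carrier, rose 1.38-fold (adjusted p 0.0434), together 8.7% of that list. Mpc1 was also the only one called of 59 genes of glycolysis and the TCA cycle (1.69%), whose median of -0.13 became -0.053 without KO911. These 3 calls were lost without any 1 of the 6 libraries, with adjusted p up to 0.159. None of 34 ATF4 target and amino acid transport genes (median -0.10), 36 genes of cholesterol and fatty acid synthesis (median -0.12) or 27 genes of lipid efflux and storage (median -0.14) was called. Of 20 glucocorticoid response genes, which follow the stress hormone, 0 were called. Their median of -0.36 lay between -0.46 without WT914 and -0.14 without WT913. Tsc22d3, a classical member, overlapped between WT (361, 532 and 277 TPM) and KO (426, 291 and 264 TPM).

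Markers of other cell types also varied between the libraries. The 21 endothelial and mural markers summed to 5146, 6266 and 3860 TPM in WT and to 2699.8, 2827 and 4232 TPM in KO, so KO915 lay within the WT range. None of the 21 was called, all 21 had a negative log2 fold change, and the median was -0.79. Cldn5, a tight junction protein of these cells, had 338, 381 and 249 TPM in WT and 139, 177 and 327 TPM in KO. The 12 choroid plexus and ependymal markers summed to 22525.6, 19248 and 16841 TPM in WT and to 26326.5, 24317 and 11565 TPM in KO. None of the 12 was called. Their median of -0.06 lay between -0.21 without KO912 and 0.24 without KO915. Monocyte and neutrophil markers were higher in WT914 than elsewhere: the 18 neutrophil markers summed to 25263 TPM there and to 6292 to 9324 TPM in the other 5, and their median log2 fold change of -0.58 became 0.03 without WT914. The corresponding monocyte medians were -0.53 and -0.08. Apart from Lhb of the pituitary list, no marker was at 0 in all 6 libraries, and the 52 microglial genes summed to 88826 TPM in WT914 and to 95665 to 114777 TPM in the other 5. In bulk samples fewer cells of a type and less RNA per cell cannot be told apart, and the part of these cells in the genes called was not tested.

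Short RNAs were among the largest differences but rest on few reads. Mir1938 was listed at 0 in all WT libraries and had 47.1, 34.6 and 21.6 TPM in KO, on 23, 15 and 12 recovered reads (log2 fold change 5.08 ± 0.58, adjusted p 0.0038). Mir6928 was likewise listed at 0 in WT and had 26.3, 19.8 and 20.5 TPM in KO, on 9, 6 and 8 reads (adjusted p 0.0444). Mir3093 went the other way, with 10.1, 10.9 and 2.18 TPM in WT on 4, 4 and 1 reads and 0 in KO (adjusted p 0.0336). These are values of the annotated hairpin loci, not of mature miRNAs. The mature sequences from RefSeq (GRCm38.p6) are given with the seed, bases 2 to 8, in capitals, to show that the 3 loci share no seed.
mmu-miR-1938, chr12:40222782-40222803, - strand: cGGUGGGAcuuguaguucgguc
mmu-miR-6928-5p, chr11:101030345-101030367, + strand: aGGGGAUUugcauggacugcacu
mmu-miR-6928-3p, chr11:101030388-101030409, + strand: aAGCUGUUccuguacucuccag
mmu-miR-3093-5p, chr3:88215186-88215207, + strand: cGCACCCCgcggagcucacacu
mmu-miR-3093-3p, chr3:88215226-88215247, + strand: uGUGGACAccgugggagguugg
Small nucleolar RNAs, which guide the modification of ribosomal RNA from within introns of host genes, were called higher for 6 of 244 tested (2.46%, against 1.02% of all genes tested). Snord104 had 88.0, 145.9 and 117 TPM in WT and 208, 251 and 305 TPM in KO, on 28 to 43 and 71 to 119 reads (2.18-fold, adjusted p 0.0461). Snord23 and Snord42b were listed at 0 in WT and rested on 2 to 4 reads in each KO library (adjusted p 0.00973 and 0.0176). Whether counting used strand is not given in the sources used here, so reads of a host or overlapping transcript cannot be told apart from those of the short RNA. Of these 6 short RNAs, Mir1938 passed with every library left out. Counting it, 1 passed without KO911 or KO912, 2 without WT904, WT913 or KO915 and 3 without WT914, with adjusted p up to 0.153.

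The effect of the knockout under PBS was set beside that under LPS. The fold changes of the comparisons share no library. Both were tested in the same fit over all libraries of the series, so the spread of each gene, and with it both p-values, was shared. Genes called under both PBS and LPS are therefore not independent calls. Under LPS, 93 genes (0.497%) were called between 4 KO and 4 WT libraries, and with all libraries 27 of the 191 called under PBS were among them. The LPS count was 42 without WT913, 45 without KO911, 52 without KO912 or KO915, and 8 without WT914 and the third KO LPS library. With median-of-ratios scaling it was 172, of which 27 were higher and 145 lower, against 48 and 45 in TPM. The test of the difference between the effects called 0 of 18724 genes (0%) in limma, with 1780 at an unadjusted p under 0.05, and 0 in limma-voom on recovered reads, so no gene is shown here to respond differently under PBS and LPS. The ribosomal shift was of like size in both: the median log2 fold change was 0.56 for the large and 0.61 for the small subunit under LPS, where 11 and 10 genes were called higher, against 0.256% of all genes tested. Without WT914 and the third KO LPS library these medians were 0.57 and 0.62 and none of these genes was called, and with median-of-ratios scaling they were 0.47 and 0.52, with 2 called in each list. Cd22 (-1.33 under PBS and -1.50 under LPS), H2-Ob (-1.30 and -0.89), Rcbtb2 (-1.004 and -0.90) and Epha2 (1.09 and 1.08) were called under both with all libraries. Under LPS without WT914 and the third KO LPS library, Cd22 and Epha2 passed (adjusted p 0.0292 and 0.0135) and H2-Ob and Rcbtb2 did not (0.0524 each).

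Medians of the clock and NF-kB lists lay near 0 under LPS, which did not hold for every list. The type I interferon list had -0.69 under LPS with 0 called, and the homeostatic microglia list -0.25 with 7 called lower. The MHC class II list had 0.38, with 2 called higher and 1 lower. The clock list had -0.03 there, with 0 of 24 called, and the NF-kB list -0.02, with 1 called. With median-of-ratios scaling they were -0.10 and -0.11, with 1 called in each. Tef was at -0.28 under LPS against -1.11 under PBS, without passing the test of the difference (unadjusted p 0.0054, adjusted p 0.417). Hcar2 had the smallest p of that test among the genes named here, at 1.66 under PBS and -0.21 under LPS (unadjusted p 3.96e-06, adjusted p 0.0741). Its level was 187 to 282 TPM in the 8 LPS libraries, far above the 3.42 to 22 TPM of the PBS libraries. Nrros was at 0.86 and 0.22 (unadjusted p 5.47e-05, adjusted p 0.227). Rheb was at -0.42 under LPS, with 31.8, 32.5, 33.6 and 25.1 TPM in WT and 25.5, 22.9, 23.1 and 19.5 TPM in KO (adjusted p 0.11).

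**Figure D5:**
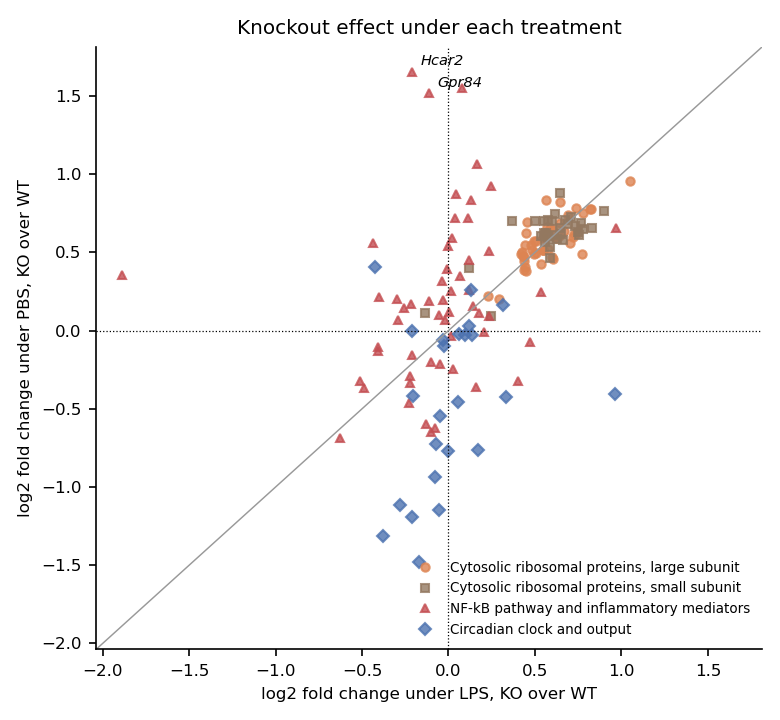
Each point is a tested member of 1 of 4 gene lists, with its log2 fold change KO over WT under LPS on the x axis and under PBS on the y axis, and the diagonal marks equal effects. Ribosomal protein genes lie along the diagonal (medians 0.57 and 0.63 under PBS, 0.56 and 0.61 under LPS). Clock genes spread along the y axis (medians -0.42 and -0.03). The test of the difference between the effects called 0 of 18724 genes, and sex and treatment cannot be told apart between the axes.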

How the data were processed

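RNA was measured in 14 libraries of mouse microglia, of which the 6 PBS libraries are described. The authors deposited 1 table of TPM for 41739 Ensembl genes, each library summing to 1000000. Per the submitters' processing notes, reads passed FastQC 0.11.9 and cutadapt 4.4, were aligned with STAR 2.7.10b to hg38 and counted by featureCounts 2.0.1; hg38 is human, but all gene IDs are of mouse. No gene coordinates were therefore taken for the values. Symbols were matched for 41588 IDs (GENCODE M21). Genes at 1 TPM or more in at least 3 of the 14 libraries (18724) were tested on log2(TPM + 1), so fold changes of low genes are understated. limma 3.58.1 (R 4.3.3) was fitted with an intensity trend to 4 group means over all 14 libraries, with Benjamini-Hochberg adjustment over all genes and a threshold of 0.05. The fit was tested on simulated data. Whole reads were recovered from the TPM steps (98.3% to 98.6% of values within 0.02 of a whole number), giving 8.00 to 32.3 M reads per library. Alternatives left out each PBS library, used PBS libraries alone, or changed pseudocount, filter, scaling or variance model, and limma-voom on recovered reads and PBS libraries alone without WT914 were added after seeing the data. Named genes were the 15 largest rises and 15 largest falls without overlap at 5 TPM or more, genes called with and without WT914 (up to 25), up to 5 called members per list and direction or the smallest p, and 8 fixed genes; not all are printed, and some are not reported here. The clock feedback and activating genes, the presenting molecules, Smpdl3a, Mlxipl, Siglech, Cd33 and the marker levels were chosen after their values were seen. Members and the 50 lists were chosen with earlier results of these data known.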

Additional observations from a re-analysis of the deposited data

How the results depend on the processing

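The sign of every named gene that was called held under every alternative. Since the KO and WT libraries of these genes did not overlap, only the changes of scaling and limma-voom could have reversed it. Genes called between KO and WT under PBS numbered 191, and 8 to 50 with 1 library left out. Without WT914 and KO_LPS 3 the number was 19 (52.6% higher). With PBS libraries alone it was 109 (84.4% higher), of which 57 were among the 191. It was 11 with PBS alone without WT914 (36.4% higher), 79 without a filter and 65 without an intensity trend. It was 261 with a filter at 5 TPM and 191 with limma-voom on recovered reads, 117 of them shared. Called members of the lists numbered 48, and 2 to 13 with 1 library left out, 4 without WT914 and KO_LPS 3, 2 with PBS alone without WT914, 19 without a filter, 74 with a filter at 5 TPM and 16 without an intensity trend. Rheb was called at -0.79, lay between -0.84 and -0.72 with 1 library left out, and did not pass at -0.74 without WT914 and KO_LPS 3 (adjusted p 0.0946) or with PBS alone without WT914. The 93 genes called under LPS became 141 with a filter at 5 TPM, 32 without a filter, 47 without an intensity trend and 307 with limma-voom. The difference of the effects under PBS and LPS called 0 genes, 3 without WT914 and KO_LPS 3, 3 with a pseudocount of 0.1, 2 with median-of-ratios scaling and 1 each with a pseudocount of 5, no filter and no intensity trend. With 1 library left out, Il1b (0.14) lay between -0.12 (without WT913) and 0.45, and Tsc22d3 (-0.23) between -0.45 and 0.019 (without WT913). Over the same fits the median of the hydrolase list lay between -0.053 and 0.098, and of MHC class II between -0.11 and 0.16. That of the Siglec family lay between -0.093 and 0.11, and of neutrophil markers between -1.01 and 0.026. The extremes -0.053, -0.11, -0.093 and 0.026, of the other sign than with all libraries, were those without WT914, and both other fits without WT914 gave the same values. Without KO912 the MHC class II median was -0.072. The cause was not tested. No paired analysis was possible because the 6 PBS libraries carry 6 different numbers.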

Other observations

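By gene order in GENCODE M21, the fullest run of called genes lay in the MHC region of chromosome 17. Among 40 neighbouring tested genes, 6 of the 191 were called there: Rps28, Rps18, H2-DMa, H2-DMb2, Tap2 and H2-Ob, of which 5 rose and H2-Ob fell. The next fullest run held 4 called genes, on chromosome 3 (Ptgfrn, Dennd2c, Olfml3 and Fam19a3). No other chromosome had more than 3 in such a run. The runs were looked for after the calls were known, and nothing was tested on them.

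Hbb-y, an embryonic beta-like globin, had 5.21, 1.88 and 2.10 TPM in WT on 15, 5 and 7 recovered reads and was listed at 0 in all KO libraries (adjusted p 0.00973, lost without KO911 or KO912). The adult alpha globin Hba-a2 had 3.30, 7.48 and 7.12 TPM in WT and 16.9, 12.8 and 7.0 TPM in KO, with overlapping groups, and none of the 5 tested erythroid markers was called.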
